A study of Mus musculus with 14 samples.

Results

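The 10 genes described here encode enzymes that make or use NAD. They were chosen by symbol from general knowledge of the pathway, and are Afmid, Kmo, Haao, Qprt, Nadsyn1, Nmnat1, Nampt, Nnmt, Parp1 and Cd38. All 10 were found among the 24411 genes counted in each kidney, and all 10 were among the 14300 genes that passed edgeR's filter on low counts and were tested. The study was about the actin-binding protein CNN2 in acute kidney injury, and its bulk RNA sequencing followed kidneys at day 0, day 1 and day 3 around renal ischemia/reperfusion injury (IRI), in which blood flow to the kidney is stopped and then restored. Bulk sequencing counts the RNA of every cell of the tissue together, so fewer cells of a type and less RNA per cell cannot be told apart. All groups were kidneys of male C57/B6 mice aged 8 weeks. There were 4 libraries at day 0, 5 at day 1 after IRI and 5 at day 3 after IRI. The names of the deposited tables call the day 0 kidneys controls, and the sources used here do not say whether those mice had a sham operation, how long blood flow was stopped, or whether each library came from its own animal. The p-values therefore measure the spread between these libraries.

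NAD carries electrons in energy metabolism and is also cut up by enzymes that use it as a substrate, so cells must keep making it. The kidney and the liver can build it from tryptophan through the kynurenine pathway, and in the kidney this pathway is known mainly from the proximal tubule. Afmid, Kmo, Haao and Qprt work along that route, Nampt starts the salvage route that recycles nicotinamide, Nmnat1 and Nadsyn1 work at the end of the synthesis routes, Nnmt removes nicotinamide by methylation, and Parp1 and Cd38 consume NAD.

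Expression is given as CPM, reads scaled to a common library size with edgeR's TMM factors, with 12485579 to 20476979 reads on genes per library. The name of each deposited table holds a number. Every day 0 library, day 1 replicates 3 to 5 and day 3 replicates 4 and 5 carry a number with 1 digit. The remaining injured kidneys, which are day 1 replicates 1 and 2 and day 3 replicates 1 to 3, carry numbers with 3 digits. None of the sources used here says what the number of digits marks, and day 0 has no 3-digit library, so a 3-digit library against day 0 compares unlike names as well as unlike days. Markers of the kidney tubule were abundant, and 12 proximal tubule markers summed to 25534 to 27563 CPM at day 0. Libraries stood apart within the injured groups. The proximal tubule sum was 25954 CPM in replicate 3 of day 1, inside the day 0 range, against 7667 to 18727 CPM in the other libraries of day 1. It was 20534 CPM in replicate 2 of day 3 against 4809 to 10465 CPM in the other libraries of day 3. The sum of 5 tubular injury markers, Havcr1 and Lcn2 among them, was 100.03 to 135 CPM at day 0, and it was lowest for its day in the same replicates, at 899 CPM in replicate 3 of day 1 and 969.8 CPM in replicate 2 of day 3.

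All 10 genes were placed on the mouse genome build GRCm38 with GENCODE annotation. Afmid lies at chr11:117825924-117839908 on the plus strand, Kmo at chr1:175620381-175662116 on the plus strand, Haao at chr17:83831156-83847963 on the minus strand and Qprt at chr7:127107114-127122226 on the minus strand. Nadsyn1 lies at chr7:143795584-143822849 on the minus strand, Nmnat1 at chr4:149467572-149485202 on the minus strand and Nampt at chr12:32819545-32853349 on the plus strand. Nnmt lies at chr9:48591877-48605153 on the minus strand, Parp1 at chr1:180568924-180601254 on the plus strand and Cd38 at chr5:43868553-43912375 on the plus strand. Exons of Afmid overlap exons of Tk1 on the opposite strand and of the annotated gene Gm20708 on the same strand. The counts used are by strand. The annotation used for counting is not given, so how reads on sequence shared with Gm20708 were counted is not known. An exon of Parp1 contains the microRNA gene Mir6904. The other overlaps, such as that of Kmo with Fh1 on the opposite strand, do not share exonic sequence.

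Divided by the length of all annotated exons, the levels at day 0 spread widely. Nampt and Haao were highest, at 50.6 ± 6.23 and 50.5 ± 3.95 CPM per kilobase (SD, n = 4), and their ranges overlapped. Kmo, Afmid and Qprt followed at 32.3 ± 6.56, 32.1 ± 4.89 and 29.1 ± 1.11 CPM per kilobase, each overlapping the next and all below Haao. Parp1 and Nadsyn1 formed an overlapping pair at 11.2 ± 0.481 and 10.4 ± 0.823 CPM per kilobase. Nmnat1 at 4.64 ± 0.397, Cd38 at 1.34 ± 0.401 and Nnmt at 0.143 ± 0.0858 CPM per kilobase were each separate from the gene above. At day 0 the enzymes of the tryptophan route were transcribed at 29.1 to 50.5 CPM per kilobase on average, whereas Nnmt had 2 to 7 reads in each library. At day 3 Nampt stood alone at the top with 52.7 ± 17.5 CPM per kilobase (SD, n = 5), and the next 4 genes, Afmid, Haao, Qprt and Kmo, were at 18.1, 15.9, 14.5 and 11.6 CPM per kilobase with overlapping ranges.

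**Figure D1:**
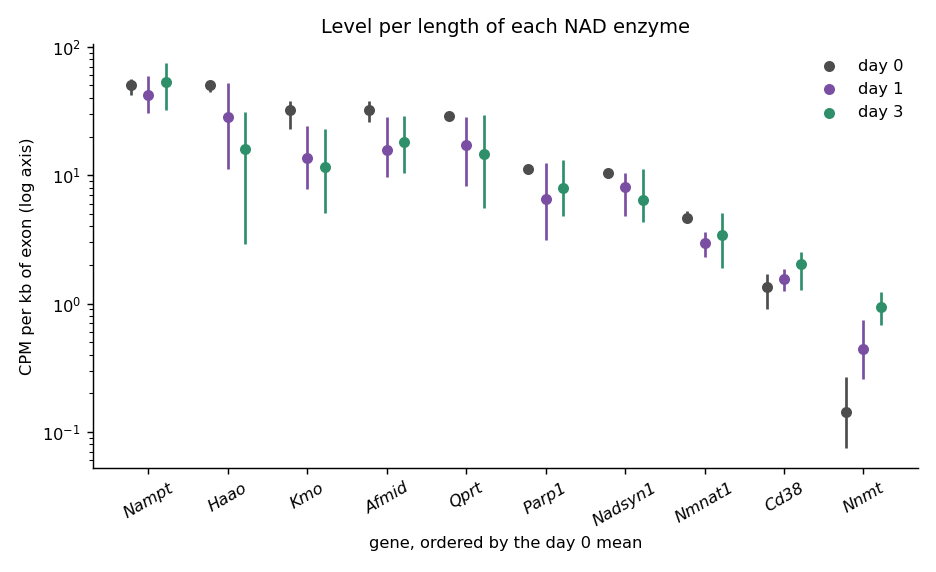
Level of each gene per kilobase of annotated exon (log axis, CPM per kilobase) at day 0, day 1 and day 3. Points are means and lines run from the lowest to the highest library of the day (4, 5 and 5 libraries). Nampt has the highest mean on all 3 days, with a range that overlaps that of Haao at day 0 and day 1, and Nnmt has the lowest.

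The promoters of Afmid, Kmo, Haao and Parp1 are shown because these 4 genes were the ones whose level differed between 1-digit and 3-digit libraries on both days, as given further on. The sequences are those of RefSeq on GRCm38.p6, from 250 bases before to 50 bases after the annotated start, 5′ to 3′ on the strand of the gene. Capitals mark a match to a searched motif. They lie at chr11:117825669-117825968 (Afmid, plus strand), chr1:175631943-175632242 (Kmo, plus strand), chr17:83846741-83847040 (Haao, minus strand) and chr1:180568641-180568940 (Parp1, plus strand). For Kmo and Haao the stretch lies inside the GENCODE gene given above, so the RefSeq start used is not the outermost GENCODE start.
Afmid: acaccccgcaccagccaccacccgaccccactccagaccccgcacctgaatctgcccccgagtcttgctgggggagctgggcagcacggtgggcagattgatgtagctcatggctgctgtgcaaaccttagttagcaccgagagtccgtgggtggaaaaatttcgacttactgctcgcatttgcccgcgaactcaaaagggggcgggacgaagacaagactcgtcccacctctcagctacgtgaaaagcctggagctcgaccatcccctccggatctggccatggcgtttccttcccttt
Kmo: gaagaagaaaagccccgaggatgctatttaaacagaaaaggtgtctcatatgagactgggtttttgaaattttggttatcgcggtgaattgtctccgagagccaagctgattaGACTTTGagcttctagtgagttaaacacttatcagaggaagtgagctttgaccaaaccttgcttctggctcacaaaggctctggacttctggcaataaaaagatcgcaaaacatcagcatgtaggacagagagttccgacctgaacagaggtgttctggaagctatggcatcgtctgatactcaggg
Haao: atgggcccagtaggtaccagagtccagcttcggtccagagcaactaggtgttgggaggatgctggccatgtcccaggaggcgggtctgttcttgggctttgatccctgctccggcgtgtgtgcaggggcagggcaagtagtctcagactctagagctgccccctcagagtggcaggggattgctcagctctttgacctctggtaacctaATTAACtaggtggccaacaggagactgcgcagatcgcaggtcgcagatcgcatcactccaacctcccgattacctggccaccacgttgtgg
Parp1: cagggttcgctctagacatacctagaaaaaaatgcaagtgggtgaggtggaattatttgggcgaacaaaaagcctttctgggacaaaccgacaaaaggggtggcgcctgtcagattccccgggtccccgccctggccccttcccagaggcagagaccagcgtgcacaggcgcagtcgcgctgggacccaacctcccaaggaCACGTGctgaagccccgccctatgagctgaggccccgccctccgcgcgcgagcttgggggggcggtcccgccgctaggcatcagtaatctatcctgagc

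A promoter entry was found for 9 of the 10 genes, all but Nnmt. Each was searched on both strands for CACGTG (E-box), GTTAAT (HNF1), CAAAGTC (HNF4), TGACTCA (AP-1) and GCGGGAA (E2F). Among all 32851 promoters of the table, 7.15%, 7.1%, 4.44%, 5.2% and 4.6% held these letters. Haao held the HNF1 letters at position -41 from the start, Kmo held the HNF4 letters at position -137, both on the strand opposite to the gene, and Parp1 held an E-box at position -49. No other member promoter held any of the motifs. The promoters also differed in composition. Kmo had 44.3% G and C and 7 CpG sites, against 59.7% and 18 in Afmid, 58.7% and 10 in Haao, 62.0% and 20 in Parp1, and medians of 52.7% and 7.0 over the table. A match is a description of letters and not a binding site.

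The comparison of days asks which enzymes of NAD metabolism change in the injured kidney. Kmo, Afmid and Nmnat1 fell and Nnmt rose at day 1. Kmo and Haao fell and Nnmt rose at day 3. The falls were to between 0.316 and 0.643 of the day 0 level, and Nnmt rose by a factor of 3.07 at day 1 and 6.33 at day 3 in the fit. All p-values across genes are from edgeR's quasi-likelihood test with Benjamini-Hochberg adjustment over the 14300 genes, and a gene was called at an adjusted p under 0.05. Against day 0, 4 of the 10 genes were called at day 1, where 42.1% of all genes tested were called, and 3 of 10 were called at day 3, where 33.3% were. The median log2 fold change of the 10 genes was -0.70 at day 1 and -0.61 at day 3, beside 0.01 and 0.05 over all genes tested. Both comparisons share the day 0 libraries. When replicate 2 of day 3 was left out, 8 of 10 were called at day 3, and 5659 of all genes in place of 4757. Without replicate 1 of day 0 the calls of Afmid and Nmnat1 at day 1 were lost, and without replicate 3 of day 0 those of Kmo and Nmnat1. How many of all genes were called in these fits is not given here. The libraries of day 1 and day 0 did not overlap for 1 of the 10 genes (Nmnat1), beside 42.0% of all genes, and those of day 3 and day 0 did not overlap for 3 of 10 (Kmo, Haao and Nnmt), beside 33.4%.

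**Figure D2:**
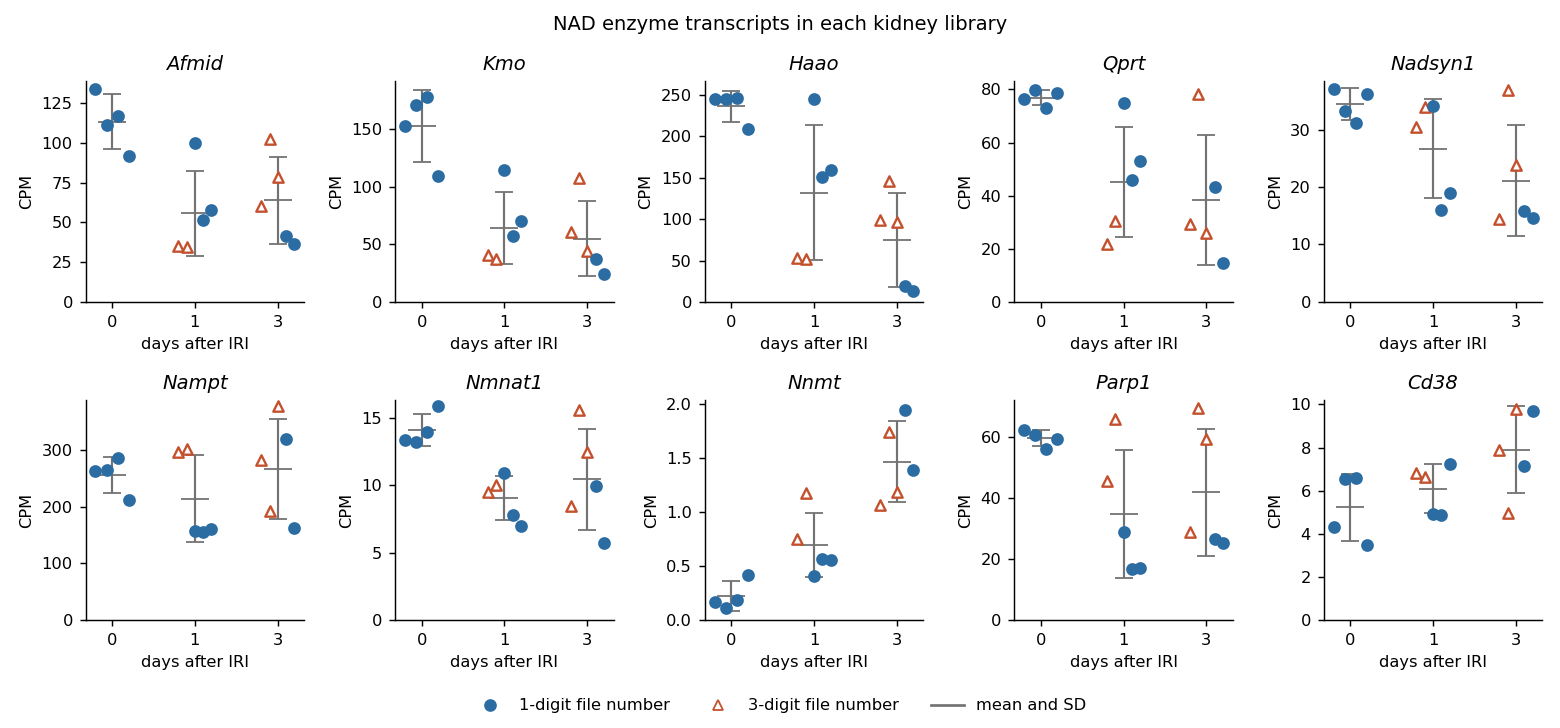
Expression of the 10 genes (CPM, each panel from 0 with its own scale) by day after IRI. Each point is 1 library, filled circles for 1-digit and open triangles for 3-digit libraries, and bars are the mean and SD of the day. Replicate 3 of day 1, the highest filled circle there, lies at the day 0 level for Haao and Qprt, and Nnmt is above every day 0 library in all 5 libraries of day 3.

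Along the tryptophan route, Afmid, which turns formylkynurenine into kynurenine, had 134, 111, 117 and 91.8 CPM in replicates 1 to 4 of day 0. It had 35.0, 34.3, 99.8, 51.4 and 57.8 CPM in replicates 1 to 5 of day 1, and 60.1, 103, 78.6, 41.6 and 36.6 CPM in replicates 1 to 5 of day 3. On each day 1 injured library, replicate 3 of day 1 and replicate 2 of day 3, lay within the day 0 range and the rest lay below it. Its log2 fold change was -1.03 (SE 0.33, adjusted p = 0.0227) at day 1 and -0.83 (SE 0.33, adjusted p = 0.0676) at day 3. Without replicate 1 of day 0 the day 1 call was lost (adjusted p = 0.0621). Without replicate 2 of day 3, or without replicate 3 of day 1, Afmid was called at day 3 (log2 fold changes -1.06 and -0.83, adjusted p = 0.0187 and 0.0349).

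Kmo, the kynurenine hydroxylase, had 153, 171, 178 and 109 CPM at day 0. It had 40.4, 37.1, 115, 57.1 and 70.1 CPM at day 1 and 61.0, 108, 44.5, 37.3 and 23.9 CPM at day 3. All 5 libraries of day 3 were below day 0, replicate 2 only just, and at day 1 replicate 3 alone reached the day 0 range. The log2 fold change was -1.26 (SE 0.39, adjusted p = 0.0194) at day 1 and -1.47 (SE 0.39, adjusted p = 0.0115) at day 3, so that Kmo had the lowest adjusted p of the 4 enzymes of this route on both days. Without replicate 3 of day 0 the day 1 value was -1.17 and its adjusted p was 0.0509.

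Haao, the dioxygenase that opens the ring of hydroxyanthranilate, had 245, 245, 246 and 209 CPM at day 0. Its day 1 values were 52.6, 52.3, 245, 151 and 159.6 CPM and its day 3 values were 98.8, 146, 96.0, 19.0 and 13.5 CPM. The spread within each injured day was wide, and replicate 3 of day 1 was at the day 0 level. The log2 fold change was -0.84 (SE 0.60, adjusted p = 0.271) at day 1 and -1.66 (SE 0.61, adjusted p = 0.0476) at day 3. All 5 libraries of day 3 were below day 0, but the call stood close to the threshold. It was lost on leaving out any 1 of the day 0 libraries, of replicates 4 and 5 of day 1 or of replicates 1, 3, 4 and 5 of day 3, with log2 fold changes from -1.80 to -1.39 and adjusted p from 0.0553 to 0.0886. It was also lost with the number of digits as a term (-2.07, adjusted p = 0.102). That term takes the digit difference to be the same on both days, which for Haao it was not, as given further on. The values against day 0 by number of digits are also given there.

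Qprt, which forms nicotinic acid mononucleotide from quinolinate and so ends the route, had 76.3, 79.7, 73.1 and 78.6 CPM at day 0. At day 1 it had 21.7, 30.6, 74.9, 45.8 and 53.2 CPM and at day 3 29.3, 78.2, 26.04, 43.4 and 14.7 CPM. Replicate 3 of day 1 and replicate 2 of day 3 were again at the day 0 level, and the other 4 libraries of each day were far below. Its log2 fold change was -0.77 (SE 0.40, adjusted p = 0.135) at day 1 and -1.005 (SE 0.40, adjusted p = 0.0678) at day 3. Without replicate 2 of day 3 the day 3 value was -1.44 (adjusted p = 0.00583), and without replicate 1 of day 1 it was -1.04 (adjusted p = 0.0487).

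Among the enzymes at the end of the synthesis routes, Nmnat1, the nuclear enzyme that joins the mononucleotide to the adenylyl group, had 13.3, 13.2, 13.96 and 15.8 CPM at day 0, from 221 to 262 reads per library. It had 9.54, 10.04, 10.9, 7.83 and 6.998 CPM at day 1, all below day 0, and 8.50, 15.5, 12.5, 9.95 and 5.73 CPM at day 3, where replicate 2 alone reached the day 0 range. The log2 fold change was -0.64 (SE 0.24, adjusted p = 0.0466) at day 1 and -0.43 (SE 0.24, adjusted p = 0.18) at day 3. The day 1 value was near the threshold. Its call was lost on leaving out any 1 of the 4 libraries of day 0, of replicates 1, 4 and 5 of day 1 or of replicates 1 and 4 of day 3, with adjusted p from 0.0517 to 0.112. Nmnat1 was called at day 3 without replicate 2 of that day (-0.62, adjusted p = 0.043).

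Nadsyn1, the NAD synthetase that amidates the last intermediate of the tryptophan route, had 37.1, 33.3, 31.2 and 36.3 CPM at day 0. It had 30.5, 33.9, 34.1, 16.003 and 19.0 CPM at day 1 and 14.4, 36.8, 23.9, 15.8 and 14.7 CPM at day 3. At day 1 replicates 4 and 5 were far below day 0 while the other 3 were at or just under it, and at day 3 replicate 2 alone was at the day 0 level. The log2 fold change was -0.37 (SE 0.29, adjusted p = 0.319) at day 1 and -0.70 (SE 0.29, adjusted p = 0.0742) at day 3, and neither was called. It was called at day 3, in the same direction, without replicate 2 of that day (adjusted p = 0.0064).

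Nampt, the rate-limiting enzyme of nicotinamide salvage, had 263, 264, 285 and 211 CPM at day 0, 296, 301, 158, 155 and 161 CPM at day 1 and 282, 193, 376, 318 and 162 CPM at day 3. At day 1 replicates 1 and 2 were above every day 0 library and replicates 3, 4 and 5 were below every day 0 library, so the mean of 214 ± 77.2 CPM (SD, n = 5) lay in a gap that no library filled. Its log2 fold change was -0.26 at day 1 (95% interval from -0.79 to 0.28, adjusted p = 0.462) and 0.06 at day 3 (95% interval from -0.47 to 0.59, adjusted p = 0.882). The sign at day 3 turned on leaving out replicate 4 of day 0 or replicate 3 or 4 of day 3 (-0.02, -0.14 and -0.01) and with the number of digits as a term (-0.28).

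Nnmt, which methylates nicotinamide and so takes it out of salvage, was the only member called higher against day 0. It had 0.173, 0.118, 0.190 and 0.423 CPM at day 0, from 2 to 7 reads per library. It had 0.754, 1.18, 0.409, 0.572 and 0.563 CPM at day 1, from 6 to 26 reads, and 1.07, 1.75, 1.19, 1.95 and 1.396 CPM at day 3, from 19 to 31 reads. Every library of day 3 was above every library of day 0, and at day 1 replicate 3 alone fell inside the day 0 range. The log2 fold change was 1.62 (SE 0.44, adjusted p = 0.0102) at day 1 and 2.66 (SE 0.44, adjusted p = 0.000696) at day 3. With the reads of each day pooled, the ratio to day 0 was 3.29 (95% exact binomial interval from 1.85 to 6.22, 63 against 15 reads) at day 1 and 6.41 (3.74 to 11.8, 124 against 15 reads) at day 3, and these intervals cover counting error only. Both calls held on leaving out any 1 library and in every alternative setting in which Nnmt passed the filter on low counts.

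Nnmt is also known from fibroblasts and fat cells, so their markers are given beside it. The sum of 6 fibroblast markers was 124 to 134 CPM at day 0, 144 to 441 CPM at day 1 and 522 to 1152 CPM at day 3, with 2 of 6 called higher at day 1 and 5 of 6 at day 3. The sum of 6 adipocyte markers was 46.0 CPM in replicate 4 of day 0, the day 0 library with the most Nnmt, and 0.115 to 1.01 CPM in the other 3. It was 34.4 and 31.98 CPM in replicates 1 and 2 of day 1, which had the most Nnmt of day 1, and 0.750 to 6.001 CPM in the other 3. At day 3 it was 5.96, 0.563, 1.29, 16.8 and 22.7 CPM in replicates 1 to 5, and replicate 2, with the lowest sum, had the second highest Nnmt of that day. Of these 6 markers 2 were tested, and by edgeR 0 were called on either day over all libraries, while 1 of the 2 was called higher against day 0 in the 3-digit libraries of day 1 and in the 1-digit libraries of day 3. The part of these cells in the rise of Nnmt was not tested.

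Of the consumers, Parp1, the nuclear enzyme that spends NAD on poly(ADP-ribose) at DNA breaks, had 62.1, 60.4, 56.1 and 59.1 CPM at day 0. It had 45.5, 65.8, 28.9, 16.7 and 17.1 CPM at day 1 and 28.8, 69.3, 59.1, 26.6 and 25.4 CPM at day 3. At day 1 replicate 2 was above every day 0 library and the other 4 were below every one. At day 3 replicate 2 was above the day 0 range, replicate 3 was within it and the other 3 were below it. For Parp1 the log2 fold change was -0.77 (SE 0.40, adjusted p = 0.132) at day 1 and -0.51 (SE 0.40, adjusted p = 0.339) at day 3. Without replicate 2 of day 1 the day 1 value was -1.13 (adjusted p = 0.0234). With the number of digits as a term Parp1 was called on both days, at -1.42 (adjusted p = 0.000445) and -1.31 (adjusted p = 0.0017). The sum of 7 proliferation markers is given beside it, since Parp1 is also high in dividing cells. It was 70.8 to 141 CPM at day 0, 111 to 293 CPM at day 1 and 142 to 718 CPM at day 3, and it was highest for its day in 3-digit libraries. Its part in the Parp1 values was not tested.

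Cd38, a surface enzyme that hydrolyses NAD and is known from immune cells, had 4.31, 6.53, 6.57 and 3.51 CPM at day 0. It had 6.84, 6.63, 4.91, 4.86 and 7.24 CPM at day 1 and 7.89, 4.96, 9.80, 7.13 and 9.70 CPM at day 3, from 58 to 198 reads per library over all days. At day 3 replicate 2 was inside the day 0 range and the other 4 were above it. For Cd38 the log2 fold change was 0.22 (SE 0.26, adjusted p = 0.511) at day 1 and 0.59 (SE 0.26, adjusted p = 0.0919) at day 3, and without replicate 2 of day 3 the latter was 0.72 (adjusted p = 0.0324). The sum of 8 macrophage markers was 129.8 to 211 CPM at day 0, 132 to 340.1 CPM at day 1 and 192 to 485 CPM at day 3, with 4 of 8 called higher and 1 lower at day 3. All 5 neutrophil markers in the tables were called higher on both days. The sum of 6 lymphocyte markers was at most 1.57 CPM in any library and 0 of the 6 passed the filter. The part of these cells in the Cd38 values was not tested.

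**Figure D3:**
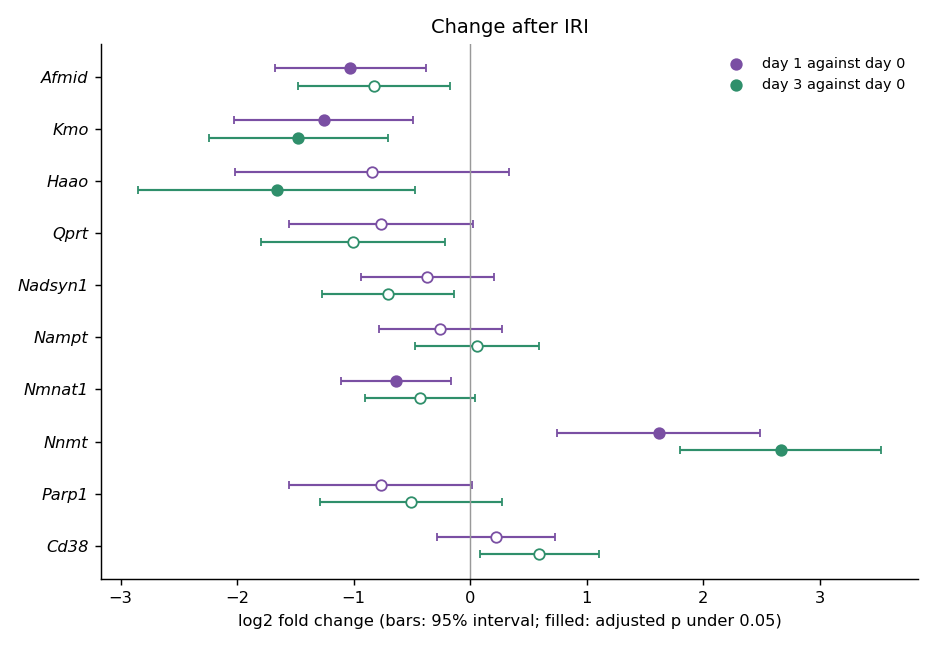
Log2 fold change of the 10 genes at day 1 and day 3 against day 0, with bars for the 95% interval and filled points for an adjusted p under 0.05. Nnmt is the only gene with filled points right of 0, at 1.62 and 2.66, and the filled points of Afmid, Kmo, Haao and Nmnat1 lie left of 0.

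Day 3 against day 1 gave 0 of 10 calls, beside 15.9% of all genes tested. At an unadjusted p under 0.05 there was 1 (Nnmt), and DESeq2 also called 0. Nnmt had a log2 fold change of 1.05 (SE 0.36, adjusted p = 0.0627), and it was called without replicate 2 of day 1 (1.33, adjusted p = 0.0207). Haao had the next largest difference, at -0.82 (95% interval from -1.94 to 0.30, adjusted p = 0.342). The 95% intervals of the other 8 genes all held 0, with the lowest limit at -0.99 for Qprt and the highest at 1.01 for Parp1.

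The libraries of an injured day differed by the number of digits in the table name. At day 1 the 2 libraries with 3 digits had less Haao, Kmo and Afmid and more Nampt and Parp1 than the 3 with 1 digit. Haao was 52.5 ± 0.226 CPM (SD, n = 2) against 185 ± 52.3 CPM (SD, n = 3), a log2 difference of -1.82 (SE 0.25, adjusted p = 0.000353). Kmo differed by -1.06 (SE 0.37, adjusted p = 0.0413) and Afmid by -1.01 (SE 0.28, adjusted p = 0.0146). Qprt was lower in the 3-digit libraries without overlap, but was not called (-1.15, SE 0.47, adjusted p = 0.0743). Parp1 was 55.6 ± 14.4 CPM against 20.9 ± 6.92 CPM, a log2 difference of 1.41 (SE 0.31, adjusted p = 0.00428). Nampt was 299 ± 3.64 CPM against 158 ± 3.19 CPM, a log2 difference of 0.92 (SE 0.27, adjusted p = 0.0188). In all, 5 of 10 members were called, beside 35.0% of all genes tested. The Haao call held on leaving out any 1 library. The others did not when a 3-digit library was left out, which leaves that arm with 1 library assumed to vary like the rest: Kmo, Afmid and Nampt were lost without either one (adjusted p from 0.0665 to 0.197), and Parp1 without replicate 2 (adjusted p = 0.0631). Kmo was also lost without replicate 1, 2 or 3 of day 0 or replicate 3 or 5 of day 1 (adjusted p from 0.0513 to 0.146) and Nampt without replicate 4 of day 1 (adjusted p = 0.0512). Qprt was called without replicate 2, 4 or 5 of day 3 (adjusted p from 0.0196 to 0.0401), and Nadsyn1 without replicate 3 of day 1 (0.88, adjusted p = 0.0483).

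At day 3 Haao, Kmo and Afmid lay the other way round, while Qprt was not called and its libraries overlapped (0.61, SE 0.47, adjusted p = 0.358). The 3 libraries with 3 digits had 114 ± 28.0 CPM of Haao (SD, n = 3) against 16.2 ± 3.85 CPM (SD, n = 2) in the 2 with 1 digit, a log2 difference of 2.80 (SE 0.26, adjusted p = 0.000934). Kmo was higher by 1.21 (SE 0.38, adjusted p = 0.041) and Afmid by 1.04 (SE 0.28, adjusted p = 0.0252). Parp1 was again higher in the 3-digit libraries, by 1.01 (SE 0.32, adjusted p = 0.045). These 4 of 10 members were called, beside 18.5% of all genes tested, and all 4 were higher, where 10.3% of all genes were called higher. Nampt differed by 0.24 (SE 0.28, adjusted p = 0.555). Only the Haao call held on leaving out any 1 library. Afmid was lost without replicate 2, 3, 4 or 5 of day 3 (adjusted p from 0.0544 to 0.178), Kmo without replicate 2 or 5 of day 3 (0.136 and 0.279) and Parp1 without replicate 2, 3, 4 or 5 of day 3 (0.109 to 0.217). Kmo and Parp1 also crossed the threshold without some libraries of the other days, Kmo without replicate 1, 2 or 3 of day 0 or 1, 2 or 5 of day 1 (0.0504 to 0.0568) and Parp1 without any 1 of day 0 or replicate 5 of day 1 (0.0543 to 0.0619). Nadsyn1 was called without replicate 1 of day 3 (0.99, adjusted p = 0.0253), and Nmnat1 without replicate 1 or 4 of day 3 (0.83 and 1.08, adjusted p = 0.032 and 0.0481). Fitted on the libraries of day 3 alone, only Haao was called among the members, beside 76 of all genes.

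The change of the digit difference between the days was tested in the same fit. It was 4.62 (SE 0.36, adjusted p = 0.000101) for Haao, 2.27 (SE 0.53, adjusted p = 0.0116) for Kmo and 2.05 (SE 0.40, adjusted p = 0.00456) for Afmid on the log2 scale. These 3 of 10 were called, beside 17.6% of all genes tested. Qprt had the same sign, at 1.76 (SE 0.66, adjusted p = 0.0822). For Parp1 the change was -0.40 (95% interval from -1.27 to 0.46, adjusted p = 0.565), with the difference above 0 on both days. The Kmo call was lost without replicate 5 of day 3 (1.97, adjusted p = 0.0501), and Qprt was called without replicate 3 or 4 of day 3 (2.05 and 2.74, adjusted p = 0.0486 and 0.0182).

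**Figure D4:**
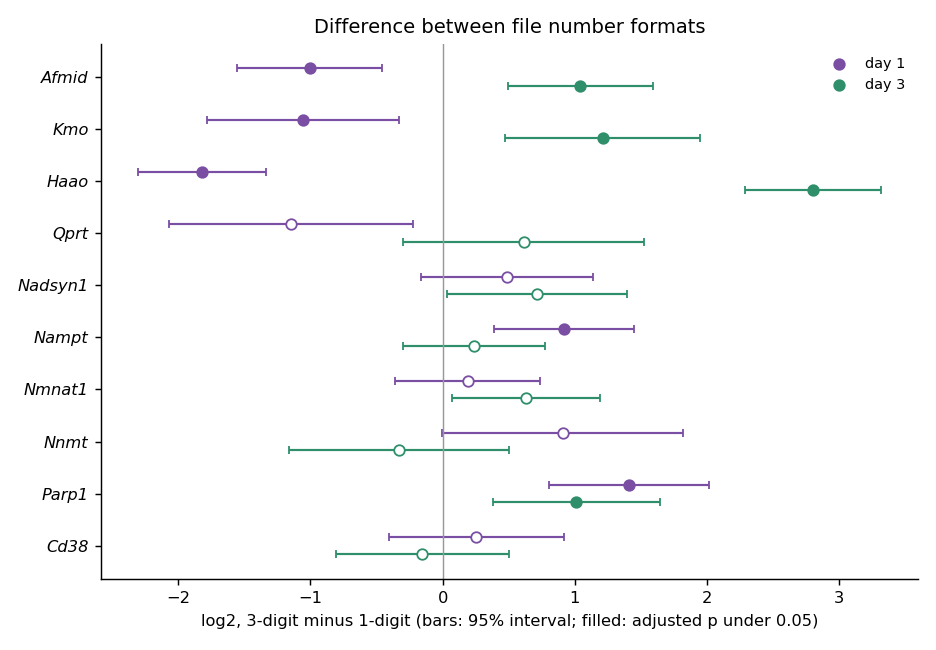
Log2 difference of 3-digit minus 1-digit libraries for the 10 genes, at day 1 (2 against 3 libraries) and day 3 (3 against 2), with bars for the 95% interval and filled points for an adjusted p under 0.05. Afmid, Kmo and Haao lie left of 0 at day 1 and right of 0 at day 3, and Parp1 lies right of 0 on both days.

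Within the 1-digit libraries, which alone share their name form with day 0, 6 of 10 members were called at day 1 against day 0, beside 58.5% of all genes tested, and 8 of 10 at day 3, beside 53.7%. Parp1 fell at both days, by 1.51 (adjusted p = 0.000444) and by 1.19 (adjusted p = 0.00619) on the log2 scale. Nampt fell at day 1 (-0.70, adjusted p = 0.0202) and was not called at day 3 (-0.09, adjusted p = 0.788). Haao was -0.35 at day 1 (adjusted p = 0.135), where scaling by library totals called it (-0.46, adjusted p = 0.0411), and fell by 3.86 at day 3 (adjusted p = 1.71e-06), to 0.0688 of the day 0 level. Kmo, Afmid and Nmnat1 fell and Nnmt rose on both days, and Qprt and Nadsyn1 fell at day 3. The day 3 arm has 2 libraries, and without replicate 5 the calls of Nadsyn1, Qprt, Nmnat1 and Parp1 were lost (adjusted p = 0.0788, 0.214, 0.25 and 0.0546). At day 1 those of Nampt, Kmo, Afmid and Nmnat1 were lost without replicate 4 or 5 (adjusted p from 0.0522 to 0.0949), and that of Nnmt without replicate 1, 2 or 3 of day 0, replicate 1, 2, 4 or 5 of day 1 or replicate 3 of day 3 (0.0511 to 0.124). Leaving out replicate 3 of day 1 instead, Haao (-0.60, adjusted p = 0.0144) and Nadsyn1 (-0.98, adjusted p = 0.01) were called at day 1, and Nadsyn1 was also called without replicate 1 or 2 of day 3 (adjusted p = 0.0421 and 0.046).

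The 3-digit libraries against day 0 gave 5 of 10 calls at day 1, beside 41.6% of all genes tested, and 3 of 10 at day 3, beside 32.4%. At day 1 all 4 enzymes of the tryptophan route fell, where 19.0% of all genes were called lower, Haao by 2.17 (adjusted p = 3.67e-05), Kmo by 1.98 (adjusted p = 0.00124), Afmid by 1.71 (adjusted p = 0.000443) and Qprt by 1.56 (adjusted p = 0.0167) on the log2 scale, and Nnmt rose by 2.08 (adjusted p = 0.00341). At day 3 Haao fell by 1.06 (adjusted p = 0.0015) and Kmo by 1.10 (adjusted p = 0.0152), and Nnmt rose by 2.53 (adjusted p = 0.000652). Parp1 and Nampt were not called on either day, and the Parp1 values were -0.09 and -0.18. The Qprt call at day 1 was lost without either of its 2 libraries (adjusted p = 0.131 and 0.0545), that of Nnmt at day 1 without replicate 2 (0.0513) and that of Kmo at day 3 without replicate 1 or 3 of day 3 (0.0607 and 0.0621). Without replicate 2 of day 3, Afmid, Nadsyn1, Qprt and Cd38 were called at day 3 as well (adjusted p = 0.0349, 0.0275, 0.0046 and 0.0476), and Afmid also without replicate 3 of day 1 (0.0445).

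Day 3 against day 1 thus had opposite signs in the 2 sets of libraries for part of the tryptophan route. In 1-digit libraries Haao fell by 3.51 (adjusted p = 2.86e-05), Kmo by 1.396 (adjusted p = 0.014) and Afmid by 0.83 (adjusted p = 0.0363) on the log2 scale, and Nnmt rose by 1.69 (adjusted p = 0.014), which made 4 of 10 beside 32.0% of all genes. In 3-digit libraries Haao rose by 1.11 (adjusted p = 0.0111) and Afmid by 1.21 (adjusted p = 0.015), which made 2 of 10 beside 13.9%. Of the 6 calls, only that of Haao in 1-digit libraries held on leaving out any 1 library. In 1-digit libraries Kmo was lost without replicate 3 of day 1 or 5 of day 3 (adjusted p = 0.0503 and 0.104), Afmid without the same or replicate 4 of day 3 (0.101 to 0.151) and Nnmt without replicate 4 of day 3 (0.0974). In 3-digit libraries Haao and Afmid were lost without either library of day 1 (0.0715 to 0.119). Nampt (1.00, adjusted p = 0.0182) was called in 1-digit libraries without replicate 5 of day 3, and Qprt without replicate 2 or 4 of day 3 (-0.99 and -1.98, adjusted p = 0.04 and 0.0293). The test of this difference is the one given above for the change of the digit difference between days.

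The 4 enzymes of the tryptophan route were set beside the proximal tubule markers of the same library. At day 1 the marker sum was 10053 and 7667 CPM in the 3-digit libraries and 25954, 18727 and 17409 CPM in the 1-digit libraries. At day 3 it was 10109, 20534 and 10465 CPM in the 3-digit libraries and 7677 and 4809 CPM in the 1-digit libraries. The sum thus lay lower in the 3-digit libraries at day 1 and higher there at day 3, the same order as Haao, Kmo and Afmid. Of the 12 markers 4 were called lower at day 1 and 6 at day 3 against day 0. By number of digits, 9 of the 12 were called lower in 3-digit libraries of day 1 and 5 in those of day 3, and in 1-digit libraries 4 were lower and 1 higher at day 1 and 8 lower and 1 higher at day 3. Of 8 markers of other nephron segments 4 were called lower at day 1 and 5 at day 3, with 6 and 5 in 3-digit and 5 and 7 in 1-digit libraries.

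Per 1000 reads on these 12 markers, Haao was 9.04 ± 0.688 (SD, n = 4) at day 0, 7.75 ± 1.74 (SD, n = 5) at day 1 and 6.27 ± 3.46 (SD, n = 5) at day 3, where replicates 4 and 5 had 2.47 and 2.81 and the other 3 had 7.11 to 9.77. Kmo was 5.84 ± 1.22 at day 0, 4.07 ± 0.664 at day 1 and 5.07 ± 0.648 at day 3. Afmid was 4.33 ± 0.544 at day 0, 3.57 ± 0.643 at day 1 and 6.30 ± 1.197 at day 3, where all 5 libraries were above day 0. Qprt was 2.94 ± 0.173, 2.91 ± 0.701 and 3.58 ± 1.25. In 8 exact permutation tests (both sides) of the log2 ratios against day 0, the smallest p was 0.0159 for Afmid at day 3 (a log2 difference of 0.53, adjusted p = 0.127), followed by 0.0397 for Kmo at day 1 (-0.51, adjusted p = 0.159). None passed the adjustment, and the smallest p this design allows is 0.00794. The direction of the Afmid difference held without any 1 library, with exact p from 0.0286 to 0.0536. The ratio was chosen after the values had been seen.

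**Figure D5:**
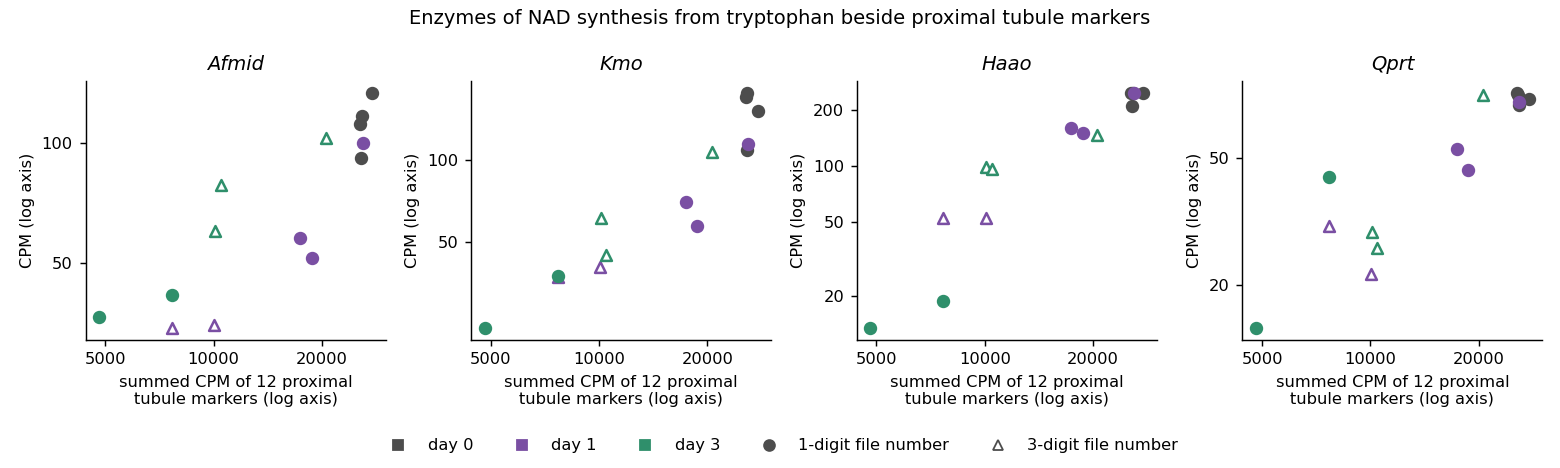
Level of Afmid, Kmo, Haao and Qprt (CPM, log axis) against the summed CPM of 12 proximal tubule markers (log axis) in the 14 libraries, by day (colour) and number of digits (circles for 1, triangles for 3). The 2 lowest Haao values, 19.0 and 13.5 CPM, belong to the 1-digit libraries of day 3, which also have marker sums of 7677 and 4809 CPM.

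Other genes of NAD metabolism were drawn from lists made from general knowledge of the pathway. Of the 35 further genes found in the files, 30 were tested, and on each day 5 were called higher and 11 lower against day 0. Of all genes tested, 23.3% were called higher and 18.7% lower at day 1, and 19.5% higher and 13.8% lower at day 3. Without replicate 3 of day 0, 8 were called at day 3, and the count over all genes in that fit is not given here. Among 6 tested genes of the tryptophan route 0 were called higher and 4 lower at day 1, and 3 lower at day 3. Ido2, a dioxygenase at the head of the route, fell by 2.32 (adjusted p = 0.0139) and by 4.72 (adjusted p = 0.000614) on the log2 scale at day 1 and day 3. Aadat, an aminotransferase that diverts kynurenine, fell by 1.53 (adjusted p = 0.0239) and by 2.60 (adjusted p = 0.00202). Of 6 genes of NAD phosphorylation and transport 4 fell at day 1 and 3 at day 3. Slc22a13, a transporter of nicotinate, went from 97.2 ± 9.29 CPM (SD, n = 4) to 6.04 ± 4.16 at day 1 (SD, n = 5) and 4.23 ± 4.69 CPM at day 3 (SD, n = 5), with log2 fold changes of -3.99 (adjusted p = 0.00067) and -4.51 (adjusted p = 0.00049). Nnt, the mitochondrial transhydrogenase, fell by 0.84 (adjusted p = 0.0496) and by 1.01 (adjusted p = 0.0276) on the log2 scale.

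Salvage genes other than Nampt were mixed. Of 5 tested, 1 was higher and 1 lower at day 1, and 1 higher and 2 lower at day 3. Pnp, a phosphorylase that can split nicotinamide riboside, rose by 0.99 (adjusted p = 0.00208) at day 1 and was at 0.13 (adjusted p = 0.65) at day 3, and Nt5e, a surface nucleotidase, fell by 1.16 (adjusted p = 0.00559) and by 1.29 (adjusted p = 0.00411) on the log2 scale. Among 10 other tested consumers 4 were higher and 1 lower on each day. Parp14, another ADP-ribosyltransferase, rose by 0.93 (adjusted p = 0.00729) and 1.04 (adjusted p = 0.00539), while Tnks, a poly(ADP-ribose) polymerase of telomeres, fell by 0.64 at day 1 (adjusted p = 0.00463) and rose by 0.41 at day 3 (adjusted p = 0.0482). Of 7 sirtuins, which consume NAD to remove acyl groups, 0 rose and 2 fell on each day, Sirt2 by 0.45 (adjusted p = 0.00522) and 0.41 (adjusted p = 0.0113) and Sirt4 by 0.82 (adjusted p = 0.0204) and 0.79 (adjusted p = 0.0305). Of 3 other genes of nicotinamide clearance 1 fell at day 1 and 2 at day 3. Cyp2e1, which oxidises nicotinamide, was at -0.13 (adjusted p = 0.873) and then fell by 1.72 (adjusted p = 0.0362), and Aox3, with at most 17 reads in any library, had means of 0.931, 0.0958 and 0.219 CPM at day 0, day 1 and day 3 and fell by 3.11 (adjusted p = 0.00421) and by 2.05 (adjusted p = 0.0294).

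As a description over the 14 libraries, the gene nearest to each member was the one with the smallest root mean square difference in mean-centred log2 CPM. It was Ivd for Kmo (0.20), Cyp2j5 for Haao (0.21), Gm4737 for Afmid (0.21) and Espn for Qprt (0.25). It was Ap5z1 for Nadsyn1 (0.14), Zscan20 for Nmnat1 (0.14) and Elmod2 for Nampt (0.17). It was Ptgfrn for Nnmt (0.32), Ints3 for Parp1 (0.12) and H2-T10 for Cd38 (0.13). Among the members themselves the closest pair was Nadsyn1 and Nmnat1 (0.32), then Kmo and Afmid (0.38) and Kmo and Qprt (0.39), and the most distant pair was Haao and Nnmt (2.16). The libraries share depth, scaling and cell make-up, so a small distance says only that these patterns were alike here.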

How the data were processed

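Bulk RNA was sequenced from 14 mouse kidney libraries. The authors extracted total RNA with TRIzol, made libraries with an Illumina TruSeq kit, and deposited for each library STAR's raw read counts per gene, listed by symbol, with no normalization. The submitters' processing notes name Trimmomatic, STAR and mm10, and their versions, parameters and annotation are not given in the sources used here. Counts of column 4 were used, which held 98.5% to 98.7% of the strand-assigned reads of a library. Reads given to no gene, 29.0% to 38.3% of a library, did not enter totals or tests.

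The 10 genes, the other gene lists and the tests were chosen with earlier results of these data known. The software was edgeR 4.0.16 (main test, on limma 3.58.1) and, as an alternative, DESeq2 1.42.0, under R 4.3.3. Low genes were removed by filterByExpr per day, TMM factors were applied, and edgeR's quasi-likelihood test with Benjamini-Hochberg adjustment ran over all 14 libraries, once with a mean per day and once with a mean for each day and number of digits. Standard errors come from the log2 fold change and the F value, and intervals are normal ones at a level of 95%. Mean-centred log2 CPM used a prior count of 2. From each other pathway list the text names the genes with the largest absolute log2 fold change at day 1 or day 3 among those called, up to 2 per list, and for each member the nearest gene. The test was tried on simulated data for day 1 against day 0: of 14257 genes, 200 carried a log2 change of 2, and 175 calls held 169 of those and 6 others. The simulation had no difference by number of digits, and far fewer genes changed in it than were called in the kidneys. It therefore does not give the error rate of the calls reported here. No pair of replicates was alike within sampling noise (5.94 to 241 by chi-square over its degrees of freedom), so none was treated as a copy of another and each counted once. This does not show that each library came from its own animal. Other settings tried were RLE factors or library totals for scaling, the unstranded column, a filter of 10 reads in all libraries or none, a minimum size of 1 on the log2 scale, DESeq2, a fit of fewer libraries, a term for the number of digits, a block for the replicate number, and each library left out. The term for the number of digits takes its difference to be the same on both days. Gene positions are from GENCODE annotation of GRCm38 and promoters from RefSeq.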

Additional observations from a re-analysis of the deposited data

Results flagged for a closer look

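Haao in replicate 4 of day 0 had 208.6 CPM, apart from the other 3 libraries of that day at 245 to 246 CPM. This was the only member with a library so far from the rest of its day in 30 groups examined, where chance gives about 1.5. The same library had 109 CPM of Kmo and 91.8 CPM of Afmid, the lowest of day 0 for both, while its proximal tubule marker sum of 25696 CPM was within the range of the other day 0 libraries and its adipocyte marker sum was 46.0 CPM against at most 1.01 CPM in the others. Its urothelial sum (45.4 against 1.82 to 8.63 CPM) and endothelial sum (273 against 208 to 217 CPM) were also the highest of day 0. Its sum for other nephron segments was the lowest, at 7639 CPM against 9092 to 10115 CPM. Without this library the log2 fold change of Haao at day 3 was -1.72 (adjusted p = 0.071 by edgeR).

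The difference between 3-digit and 1-digit libraries was not the same at day 3 as at day 1 for 3 members. The change of that difference was 4.62 for Haao (adjusted p = 0.000101), 2.27 for Kmo (adjusted p = 0.0116) and 2.05 for Afmid (adjusted p = 0.00456) on the log2 scale, by edgeR's quasi-likelihood test of the difference itself. All 3 were lower in 3-digit libraries at day 1 and higher there at day 3, as were the proximal tubule markers by their sum. The part of the markers in these values was not tested.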

How the results depend on the processing

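No alternative turned the sign of a called member. Nnmt rests on few reads at day 0 (2 to 7 per library), and with 2 libraries in some arms a call can rest on 1 library. Scaling by library totals moved the median log2 fold change of all genes by -0.17 to 0.22 against TMM.

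The members called at day 3 against day 0 numbered 3, beside 4757 of all genes, and 6 with DESeq2 beside 5528 and 5 with the number of digits as a term beside 6892. At day 3 between numbers of digits they were 4, and 1 with only the libraries of that day. In 1-digit libraries of day 1 against day 0 they were 6, and 2 with a minimum size of 1 on the log2 scale. There the calls lost had a smaller log2 value, and in the others the cause was not tested. With library totals the calls of Haao at day 3 (adjusted p = 0.0596) and Nmnat1 at day 1 (0.0594) were lost, and with no filter that of Nmnat1 at day 1 (0.0526). Library totals also lost Kmo between numbers of digits at day 1 (0.0726), Afmid for day 3 against day 1 in 1-digit libraries (0.0962) and Nnmt in 1-digit libraries of day 1 (0.0709), which was lost with no filter and with DESeq2 too (both 0.077). Calls gained were Afmid at day 3 with DESeq2 (0.0409), the unstranded column (0.0424) and the fit of day 3 and day 0 alone (0.0395), Qprt (0.0376) and Nadsyn1 (0.0453) at day 3 with DESeq2, and Nadsyn1 (0.00745) and Nmnat1 (0.0349) at day 3 with the number of digits as a term. DESeq2 also called Qprt between numbers of digits at day 1 (0.0266), as did the libraries of that day alone (0.0111), and for the change of that difference (0.0276), and library totals called Nampt for day 3 against day 1 in 1-digit libraries (0.81, 0.0332). A minimum size of 1 on the log2 scale left out each call with a smaller log2 value, Nmnat1 at day 1 among them. The filter of 10 reads in all libraries gave no value for Nnmt, nor did the fit of day 1 and day 0 alone. Leaving out 1 library at a time, the members called ran from 2 to 5 at day 1 and 2 to 8 at day 3 against day 0, from 0 to 1 for day 3 against day 1, from 1 to 6 between numbers of digits at day 1 and at day 3, and from 2 to 4 for the change of that difference. They ran from 1 to 8 in 1-digit and 3 to 5 in 3-digit libraries of day 1, from 4 to 8 in 1-digit and 2 to 7 in 3-digit libraries of day 3, all against day 0, and from 2 to 5 in 1-digit and 0 to 2 in 3-digit libraries for day 3 against day 1.

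The replicate numbers are shared across days, but did not pair the libraries. Deviations of same-numbered libraries correlated at -0.09 to 0.07 (day 1 and day 0), 0.01 to 0.26 (day 3 and day 0) and -0.17 to 0.23 (day 3 and day 1), and 0, 1 and 1 of the libraries correlated best with their own number. With the replicate number as a block, 2 members were called at day 1, 2 at day 3 and 0 for day 3 against day 1, beside 5162, 4103 and 2044 of all genes. Kmo at day 1 (-1.14, adjusted p = 0.052), Nmnat1 at day 1 (-0.52, adjusted p = 0.0736) and Haao at day 3 (-1.75, adjusted p = 0.0691) were not called under the block.

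With library totals these uncalled values changed sign: Nadsyn1 (0.0090) and Parp1 (0.018) in 3-digit libraries at day 1 against day 0, Nampt (0.0065) in 1-digit libraries at day 3 against day 0, and Nmnat1 (0.083) for day 3 against day 1 in 1-digit libraries. With the number of digits as a term Nampt at day 3 was -0.28. Leaving out 1 library at a time, these uncalled values crossed 0. For day 3 against day 1 they were Afmid (-0.034 to 0.52), Kmo (-0.61 to 0.10) and Qprt (-0.67 to 0.021), Nmnat1 in 1-digit libraries (-0.58 to 0.20), and Cd38 (-0.072 to 0.39), Nampt (-0.33 to 0.14) and Parp1 (-0.34 to 0.21) in 3-digit libraries. Against day 0 they were Nampt at day 3 (-0.14 to 0.21), in 1-digit (-0.65 to 0.34) and in 3-digit libraries (-0.14 to 0.37), Parp1 in 3-digit libraries at day 1 (-0.39 to 0.11) and day 3 (-0.44 to 0.11), and Cd38 in 1-digit libraries at day 1 (-0.10 to 0.24). Between numbers of digits at day 3 they were Cd38 (-0.38 to 0.074), Nampt (-0.18 to 0.80) and Qprt (-0.073 to 1.60), and for the change of that difference Nadsyn1 (-0.17 to 0.51). Qprt per proximal tubule marker at day 1 ran from -0.17 to 0.050.

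Of all genes, 6020, 4757 and 2276 were called at day 1 against day 0, day 3 against day 0 and day 3 against day 1, and 2963, 2597 and 921 with that minimum size. With it 2387 of 5001 and 1467 of 2645 were called between numbers of digits at day 1 and day 3, and 4166 of 8369, 2986 of 5954, 4293 of 7680 and 2220 of 4635 in 1-digit and 3-digit libraries of day 1 and then of day 3 against day 0. Comparing day 3 with day 1, 2235 of 4571 were called in 1-digit and 943 of 1988 in 3-digit libraries. With fewer libraries in the fit, day 3 against day 1 gave 831, and numbers of digits at day 3 gave 76 in place of 2645. With library totals the calls at day 3 against day 0 were 3625 higher and 1287 lower, in place of 2783 and 1974, and for day 3 against day 1 they were 1721 and 487 in place of 1219 and 1057. The same scaling gave 3910 and 1439 in place of 2656 and 2345 between numbers of digits at day 1, and 980 and 1820 in place of 1302 and 1208 for the change of that difference. For day 3 against day 1 it gave 3687 and 1296 in place of 2357 and 2214 in 1-digit libraries and 1193 and 631 in place of 1072 and 916 in 3-digit libraries, and for 3-digit libraries of day 3 against day 0 3820 and 1149 in place of 2738 and 1897.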

Other observations

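Within the injured days the number of digits also went with marker sums of other cells. At day 3 the 7 proliferation markers summed to 363 to 718 CPM in the 3-digit libraries and to 142 and 160.0 CPM in the 1-digit libraries, and the 5 tubular injury markers to 969.8 to 2426 CPM against 3426 and 4560.3 CPM. At day 1 the injury sum lay the other way, at 5579 and 5235 CPM in the 3-digit libraries against 899 to 2857 CPM in the 1-digit libraries. Endothelial markers summed to 136 to 232 CPM in 3-digit and to 327 and 544 CPM in 1-digit libraries at day 3. The 8 macrophage markers summed to 321 and 340.1 CPM in 3-digit and to 132 to 199 CPM in 1-digit libraries at day 1, and to 297 to 485 CPM against 192 and 231 CPM at day 3. The 6 fibroblast markers summed to 332 and 441 CPM in 3-digit and to 144 to 193 CPM in 1-digit libraries at day 1, and overlapped at day 3. Adipocyte sums, given above by library, were higher in 3-digit libraries at day 1 and lower there at day 3. At day 1 urothelial sums were also higher in 3-digit libraries (12.7 and 91.7 against 4.84 to 7.64 CPM) and lymphocyte sums lower (0.269 and 0.363 against 1.16 to 1.45 CPM). Neutrophil sums and those of other nephron segments overlapped on both days. The part of these cells in the differences of Nampt, Parp1 and the other members by number of digits was not tested.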
